A study of Mus musculus with 7 samples.

Results

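The genes described here are those for the Wnt ligands, their Frizzled receptors and 2 families of secreted Wnt inhibitors, the secreted Frizzled-related proteins (Sfrp) and the Dickkopf proteins (Dkk), as they stand in the gene annotation of a mouse intestinal stroma study. They were chosen by gene symbol among the protein-coding genes, which found 37 of 21700: 19 Wnt, 10 Frizzled, 4 Sfrp and 4 Dkk genes. The Wnt-binding inhibitor gene Frzb, which carries no Sfrp symbol, falls outside this choice and is counted with the other pathway genes.

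The study profiled single cells by droplet RNA sequencing that reads the 3′ ends of transcripts. The cells carried GFP from an Rspo3-GFP transgene, in mice of C57Bl6 background aged 8 to 12 weeks, and the design text adds that they were negative for Epcam and CD45, the markers of epithelium and blood cells. The 7 samples were 2 of untreated small intestine, 2 of small intestine from unirradiated control mice, 2 of small intestine from mice irradiated with 12 Gy, and 1 of untreated colon, and all of them carried the transgene. The labels do not describe how the transgene was built, and do not give the number of mice per group. The single processed file analysed here was the annotation. It holds gene models and no values per sample, so expression in these groups was not analysed here and no group is compared with another. Every value below is a property of a gene model on the mouse genome build GRCm38. Family members share ancestry and are not independent observations, so counts are set beside the same count over all protein-coding genes and no test was run.

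Wnt proteins are secreted glycoproteins that must receive a lipid from the enzyme Porcupine before they can leave the cell. The lipid docks into the cysteine-rich domain of a Frizzled receptor, and with an LRP co-receptor the complex recruits Dishevelled and stabilises β-catenin. Sfrp proteins carry a copy of the Frizzled cysteine-rich domain and bind Wnts outside the cell, whereas Dkk1, Dkk2 and Dkk4 bind the LRP co-receptors. In the intestinal crypt, Wnt signals from the stroma and from Paneth cells maintain the stem cells, and R-spondins amplify them by keeping Frizzled receptors on the cell surface.

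The coding sequences show the lipid-bearing site of the ligand and the Dishevelled-binding site of the receptor directly. Each Wnt gene encodes a conserved serine, the residue to which Porcupine attaches the lipid, within a stretch of 24 coding bases. The stretches of the 8 Wnt genes that lie next to another Wnt gene, and of 3 further ligands, are shown because between them they hold each of the 5 serine codons found. Sequences are those of GENCODE M21 transcripts of the same build, read 5′ to 3′, and capitals mark the serine codon.
Wnt1: tgccacgggatgTCCggctcctgc
Wnt10b: tgccatggaacgTCAggcagctgc
Wnt10a: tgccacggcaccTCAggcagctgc
Wnt6: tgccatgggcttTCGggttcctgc
Wnt3: tgccacgggttgTCCggcagctgc
Wnt3a: tgccacgggctaTCTggcagctgt
Wnt9a: tgccatggtgtgTCTggctcctgc
Wnt9b: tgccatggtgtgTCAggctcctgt
Wnt7a: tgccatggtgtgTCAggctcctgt
Wnt2: tgtcatggtgtgAGTggctcctgt
Wnt2b: tgtcacggtgtgAGTggctcctgt

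The in-frame stretch, searched on the coding strand of each principal coding sequence and named here the Wnt lipid-attachment serine motif, was present in 19 of 19 Wnt genes. It was in 0 of the 18 Frizzled, Sfrp and Dkk genes. Over all 21145 protein-coding genes with a usable sequence it occurred in 19 (0.0899%), which are the Wnt genes themselves. In each of the 19, it began 33 coding bases after an intron that falls between codons. On the principal transcripts, the serine therefore sits at the same distance into its exon in every ligand. Across the 18 genes whose stretch was compared (Wnt8a was not compared), 17 different stretches were found. The exception was the pair Wnt7a and Wnt9b, whose stretches were identical although the genes lie on different chromosomes. The serine was written as TCA in 5 genes, TCC in 5, TCT in 4 and TCG in 2. In Wnt2 and Wnt2b it was AGT, a codon that differs from the TCN serine codons at more than 1 base. The stretches of Wnt2 and Wnt2b differed from each other at 1 base, those of Wnt9a and Wnt9b at 2, Wnt10a and Wnt10b at 3, and Wnt3 and Wnt3a at 4.

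For the receptors, the sequence shown is that of the KTxxxW motif, 18 coding bases just inside the membrane to which Dishevelled binds. It is given for 7 Frizzled genes that stand for the different arrangements of the receptor tail described next. Capitals mark the codons of the fixed residues.
Fzd1: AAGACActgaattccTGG
Fzd2: AAGACActgcactcgTGG
Fzd7: AAGACCctgcagtcaTGG
Fzd4: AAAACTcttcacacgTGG
Fzd5: AAGACTctggagtctTGG
Fzd3: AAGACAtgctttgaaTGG
Fzd6: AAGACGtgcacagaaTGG

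KTxxxW was present in frame in 10 of 10 Frizzled genes and in 0 of the 27 other members, against 444 of 21145 protein-coding genes (2.1%). The coding sequence left after the motif, stop codon included, separated the receptors. It was 54 bases in Fzd1, Fzd2 and Fzd7, which are closely related receptors, and so ended almost at once. It was 102 bases in Fzd4, the receptor for norrin as well as Wnts, 153 in Fzd10, 165 in Fzd9, 168 in Fzd5 and 225 in Fzd8. It was 480 bases in Fzd3 and 621 in Fzd6, receptors known for planar cell polarity, so these had the longest tails of the family.

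The ligand genes were partly arranged in neighbouring pairs. Of the 19 Wnt genes, 8 stood in 4 pairs whose gene bodies lay less than 100 kb apart, on 3 chromosomes. On chromosome 1, Wnt6 (74771892 to 74785322, plus strand) was followed after 6193 bases by Wnt10a (74791516 to 74804179, plus strand). Wnt10a acts in tooth and skin appendages. On chromosome 15, Wnt10b (98770712 to 98778150, minus strand), a ligand known for bone and fat cell fate, lay 11706 bases from Wnt1 (98789857 to 98793837, plus strand), a ligand of midbrain development. On chromosome 11, Wnt3a (59248033 to 59290752, minus strand) lay 16175 bases from Wnt9a (59306928 to 59333552, plus strand). Wnt9b (103727364 to 103749821, minus strand), a kidney-inducing ligand, lay 24328 bases from Wnt3 (103774150 to 103817957, plus strand), the Wnt made by Paneth cells. No protein-coding gene stood between the partners of any pair.

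Of the 4 pairs, 3 were head to head, with the starts facing each other, 1 ran in the same direction and 0 were tail to tail. Among 16672 pairs of neighbouring protein-coding genes under 100 kb apart, 22.0% were head to head, 56.4% ran in the same direction and 21.6% were tail to tail. With 4 pairs the shares are coarse. The pair that ran in the same direction, Wnt6 and Wnt10a, was also the closest, and the lncRNA gene Gm29539, on the opposite strand, overlapped the body of Wnt6. The distance that defined a pair had little bearing on the count, since the 12 other pairs of Wnt genes on a shared chromosome were far apart. The nearest of these, Wnt2 and Wnt16, had 4257641 bases and 9 protein-coding genes between them. Across families, the nearest neighbours were Dkk4 and Sfrp1 on chromosome 8, 783954 bases and 10 protein-coding genes apart, and Fzd2 and Wnt9b on chromosome 11, 1119305 bases and 28 protein-coding genes apart. The 37 genes lay on 13 of 21 chromosomes, and chromosome 11 held the most, with 5.

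**Figure D1:**
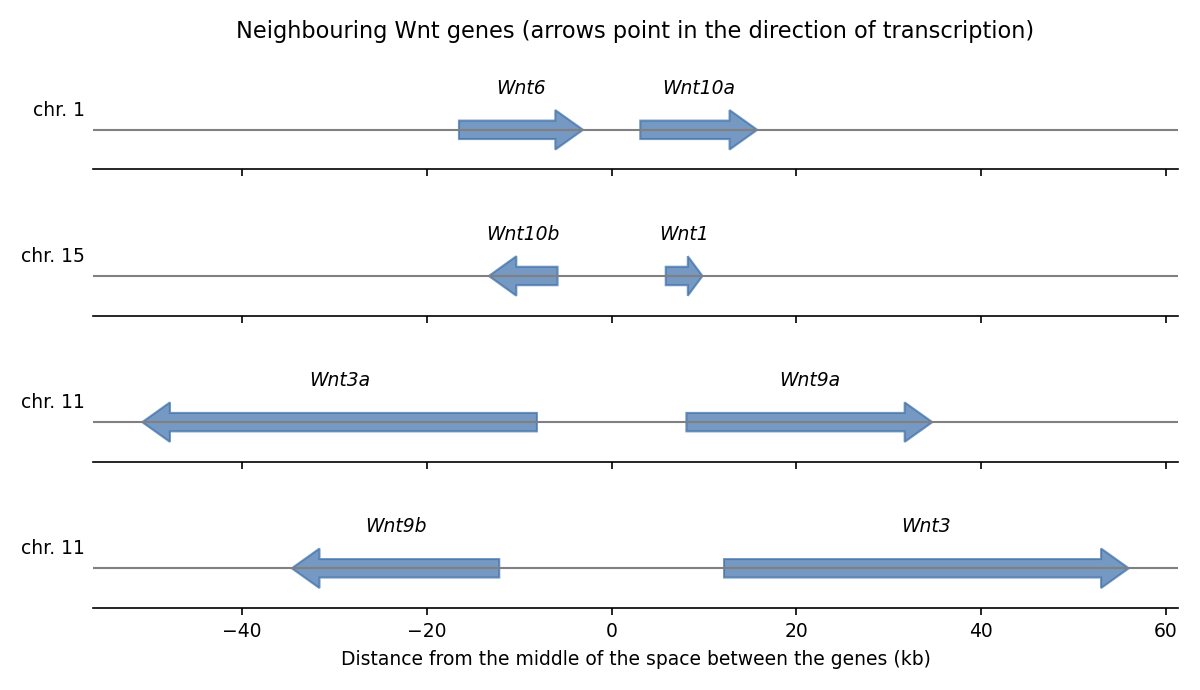
Gene bodies of the 4 neighbouring Wnt pairs, each drawn to scale along an axis of distance in kb from the middle of the space between the genes, with arrows in the direction of transcription. The gaps run from 6193 to 24328 bases, and 3 of the 4 pairs face each other head to head.

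Neighbouring Wnt genes were not each other's closest relatives. Identity between coding sequences, counted over aligned bases, ran from 56.9% to 77.7% over the 171 pairs of Wnt genes, with a median of 61.9%. The neighbours Wnt6 and Wnt10a shared 62.4%, Wnt10b and Wnt1 61.8%, Wnt3a and Wnt9a 61.4%, and Wnt9b and Wnt3 60.9%, all near that median. Among the 8 paired genes, the highest identities lay across pairs: Wnt3 and Wnt3a shared 77.5%, Wnt10a and Wnt10b 70.1%, and Wnt9a and Wnt9b 69.7%. For 8 of the 8 paired genes the nearest relative was therefore a gene outside the pair. For Wnt6 that was Wnt1 (64.6%), although when identity was counted over the shorter sequence, a measure added after the result was seen, it was the neighbour Wnt10a, which leaves 7 of 8. The 2 pairs on chromosome 11 thus carried matching partners, with Wnt3a beside Wnt9a and Wnt3 beside Wnt9b. Outside the pairs, Wnt5a and Wnt5b, ligands of the β-catenin-independent branch, shared 77.7%, the highest value of the family. Wnt7a and Wnt7b shared 76.9%, Wnt2 and Wnt2b 68.7%, and Wnt8a and Wnt8b 67.4%. Wnt4, Wnt11 and Wnt16 had no such partner: their nearest genes were Wnt5a at 64.2%, Wnt9b at 63.5% and Wnt11 at 63.2%. Counted over the shorter sequence, the nearest gene was Wnt16 for Wnt11 and Wnt7b for Wnt16.

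**Figure D2:**
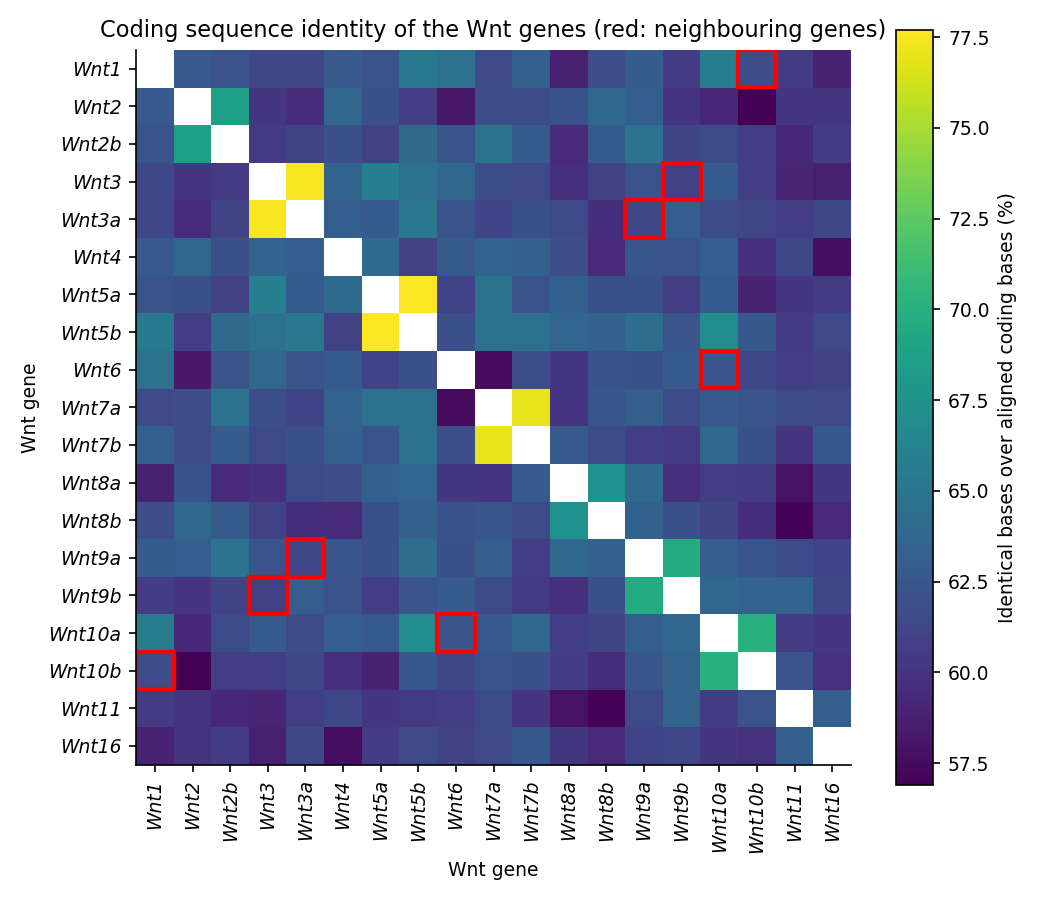
Identity of the principal coding sequences, in percent of aligned bases, for every pair of the 19 Wnt genes, as a colour scale, with red frames around neighbouring genes. The brightest cells are paralogues that share a number, such as Wnt5a and Wnt5b at 77.7%, while the 4 neighbouring pairs lie between 60.9% and 62.4%.

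Among the receptors, identity ran from 55.5% to 81.1% over 45 pairs with a median of 63.9%. Fzd1 and Fzd2 shared 81.1%, and Fzd7 shared 78.5% with Fzd2. Fzd5, a receptor required in Paneth cells, and Fzd8 shared 76.1%, and Fzd9 and Fzd10, both on chromosome 5, shared 71.5%. Fzd3 and Fzd6 were each other's nearest relative at 63.4%, and Fzd4 was nearest to Fzd9 at 65.9%. Among the inhibitors, Sfrp1 and Sfrp5 shared 69.2%, and Sfrp4 was nearest to Sfrp2 at 62.1%. The median was 63.25% over the 6 Sfrp pairs and 61.2% over the 6 Dkk pairs, which ran from 58.6% to 62.9%, with Dkk1 and Dkk2 at the upper end.

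Coding exon structure differed between the families. The Wnt genes kept a shared frame of introns. Intron phase, the number of bases of a codon before the intron, ran 2, 1, 0 in 12 of the 19 genes, with 4 coding exons each. Measured against Wnt3a (71, 242, 266 and 480 coding bases), introns 2 and 3 were matched in place, within 15 aligned bases, and in phase in all 18 other Wnt genes. Intron 1 was matched in 12. It was not matched in Wnt7b, Wnt8b, Wnt9b, Wnt10a, Wnt10b and Wnt16, of which all but Wnt8b had the phases 2, 1, 0. A miss depends on how the first coding bases were aligned and does not by itself show a moved intron. In Wnt7b, intron 1 followed coding base 71 in phase 2, as in Wnt3a and Wnt7a. Wnt7a and Wnt7b had equal lengths in every coding exon, with 71, 227, 272 and 480 bases. Other genes had introns beyond these 3. Wnt2 and Wnt2b ended in exons of 265 and 230 bases, since a further intron of phase 1 closed the exon that holds the serine. Wnt11 ended in exons of 293 and 175 bases, with a further intron of phase 2 in the corresponding exon. Wnt4, Wnt8a and Wnt8b shared a coding exon of 143 bases. Wnt8a and Wnt8b also shared exons of 34, 139 and 126 bases, and differed in the first and last exons. In the principal Wnt5a transcript a first coding exon of 6 bases preceded the usual frame, whereas Wnt5b had none.

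**Figure D3:**
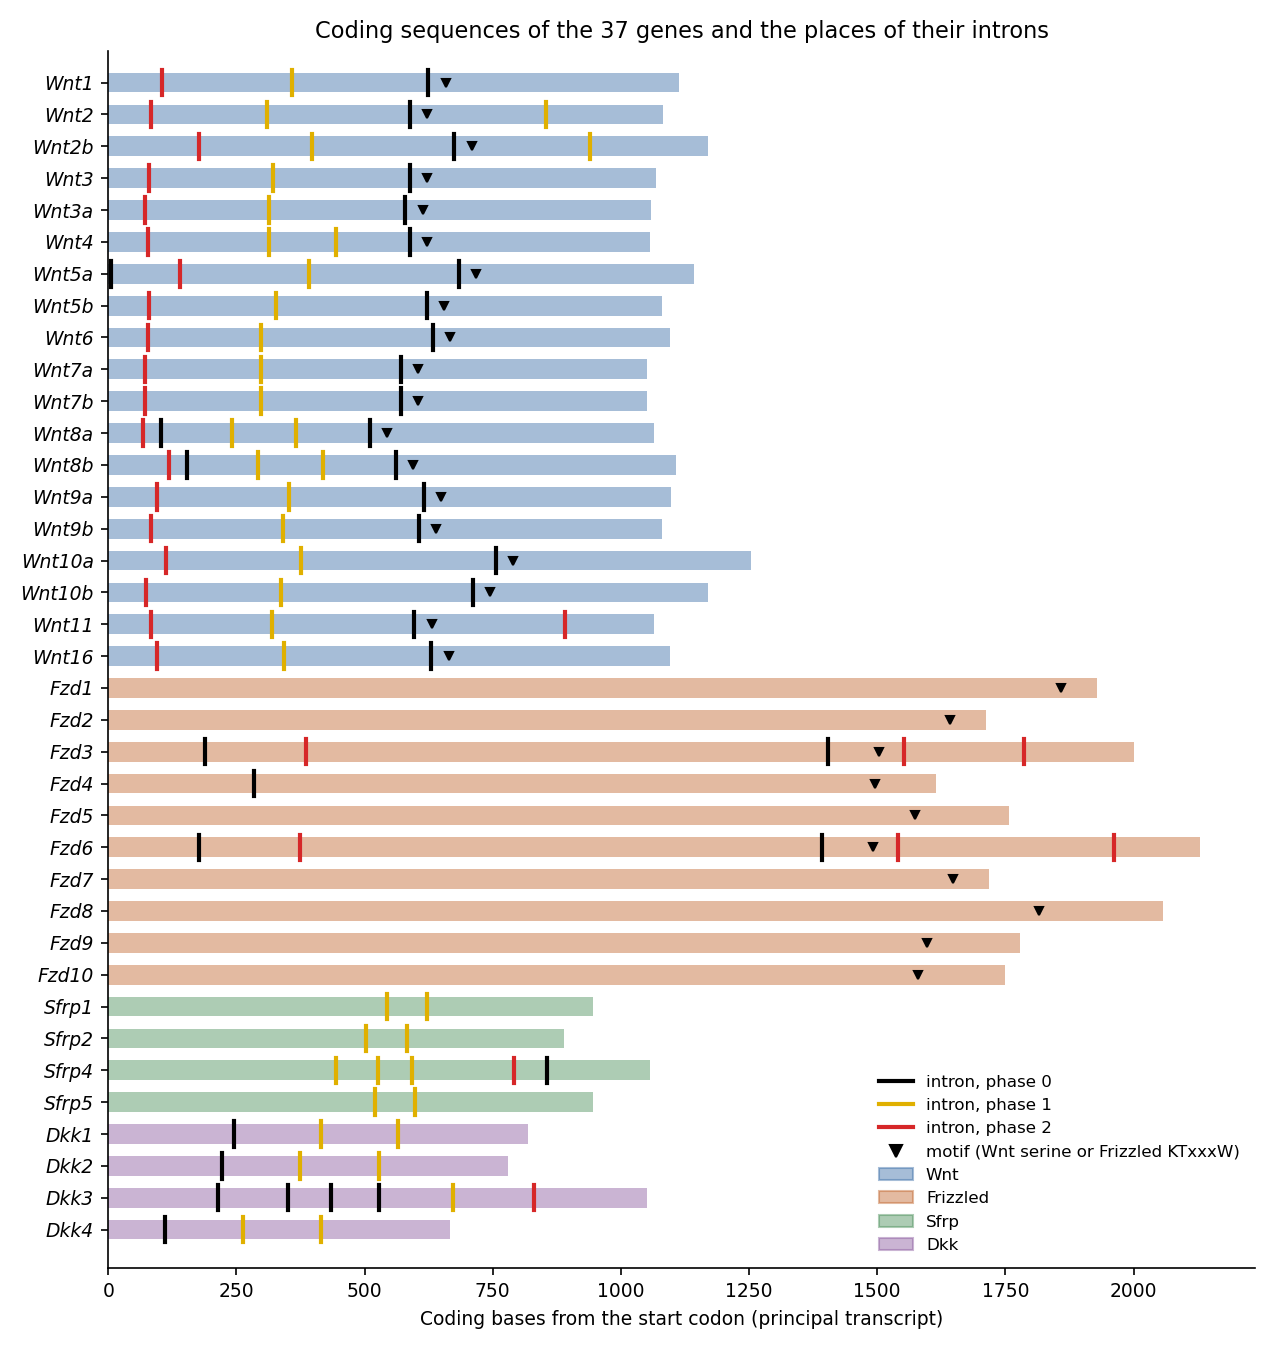
Coding exons of the principal transcript of each of the 37 genes, as bars along an axis of coding bases from the start codon, coloured by family, with introns as ticks coloured by phase and triangles at the Wnt serine or KTxxxW motif. The triangle of each Wnt gene follows a phase 0 intron, 7 Frizzled genes have no tick, and Fzd3 and Fzd6 have 6 exons each.

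The Frizzled genes had 3 arrangements of coding exons. Of the 10, 7 had a single coding exon (Fzd1, Fzd2, Fzd5, Fzd7, Fzd8, Fzd9 and Fzd10), against 16.2% of 21698 protein-coding genes. None of the 27 other members did. In 6 of the 7 the whole transcript was 1 exon, against 6.35% of protein-coding genes, and Fzd5 had an intron in the 5′ UTR. On the longest protein-coding transcript, introns in the 5′ UTR were found in 8 of the 37 members, against 38.7% of protein-coding genes. An intron in the 3′ UTR was found in 1, Wnt3, against 4.46%. Fzd4 had 2 coding exons, of 285 and 1329 bases. Fzd3 and Fzd6 each had 6, of 189, 197, 1018, 149, 234 and 214 bases and of 177, 197, 1018, 149, 420 and 169 bases. Exons 2, 3 and 4 were thus equal in length, and 4 of the 5 introns of Fzd6 were matched in place and phase in Fzd3. Of the other 8 receptors, 7 had no coding intron and could not match. The single coding intron of Fzd4 matched none of those of Fzd6. The KTxxxW motif began 99 bases after the intron that follows the exon of 1018 bases in both genes. In the 7 genes with a single coding exon the cysteine-rich domain and the Dishevelled-binding motif therefore lie in the same exon.

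The inhibitors did not follow the receptors in exon structure. Sfrp1, Sfrp2 and Sfrp5 had 3 coding exons each, of 544, 78 and 323 bases, 502, 81 and 305 bases, and 520, 78 and 347 bases. Sfrp4 had 6, of 445, 81, 66, 199, 64 and 201 bases. Frzb, an inhibitor with a Frizzled domain outside the chosen set, had 6 of 478, 48, 66, 205, 64 and 111 bases, so the exons of 66 and 64 bases were common to both. Dkk1, Dkk2 and Dkk4, which bind the LRP co-receptors, had 4 coding exons each, and Dkk2 and Dkk4 matched all 3 introns of Dkk1. Their last exons measured 254, 251 and 251 bases. Dkk3, a member that is not known as an LRP antagonist, had 7 coding exons and matched 0 of those introns within 15 aligned bases. As for the Wnt genes, a miss depends on the alignment and does not by itself show a moved intron. Coding length was 1050 to 1254 bases in the Wnt genes, 1614 to 2130 in the Frizzled genes, 888 to 1056 in the Sfrp genes and 666 to 1050 in the Dkk genes.

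The median gene spanned 22238 bases among Wnt genes, 5253 among Frizzled, 8943.5 among Sfrp and 23422 among Dkk genes, against 17390.5 over all protein-coding genes. The extremes were Fzd9 with 2293 bases and Wnt5b with 111817. Coding GC content had a median of 60.9% in Wnt genes and 61.8% in Frizzled genes, against 51.76% over 21145 protein-coding genes (quartiles 46.6% and 56.79%). The medians of the Sfrp and Dkk genes were 58.9% and 54.9%.

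Most of these genes had few transcripts. In all, the 37 genes carried 82 transcripts, of which 63 were of the protein-coding type, 12 were lncRNA, 4 were targets of nonsense-mediated decay and 3 retained an intron. A single transcript was annotated for 20 of 37 members (54.1%), against 19.3% of protein-coding genes. By family these were 7 of 19 Wnt, 7 of 10 Frizzled, 2 of 4 Sfrp and 4 of 4 Dkk genes. More than 1 complete coding sequence was annotated for 7 members (18.9%), against 41.0% of protein-coding genes: Wnt5a, Wnt5b, Wnt7b, Wnt9a, Wnt10b, Wnt16 and Sfrp4. No Frizzled and no Dkk gene was among them, so alternative coding sequence was found in ligands and 1 inhibitor.

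Alternative starts were found in an overlapping set. With start sites merged within 100 bases, 7 members (18.9%) had more than 1, against 42.0% of protein-coding genes: 5 Wnt genes, 1 Frizzled, 1 Sfrp and 0 Dkk. In Fzd6 the starts lay 299 bases apart, and in Sfrp4 1651. Wnt11, a ligand of cell movement, had starts 3733 bases apart, with 1 coding sequence. Wnt5a had starts 6655 bases apart, and Wnt10b had starts 889 and 1121 bases downstream of its first. Wnt7b had the most, with 5 start sites, at 652, 891, 1744 and 4403 bases downstream of the first. Wnt5b had the widest spread, with starts 77136 and 94961 bases downstream of the first. When transcripts of every type were counted, 13 members had an alternative start, against 66.0% of protein-coding genes.

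**Figure D4:**
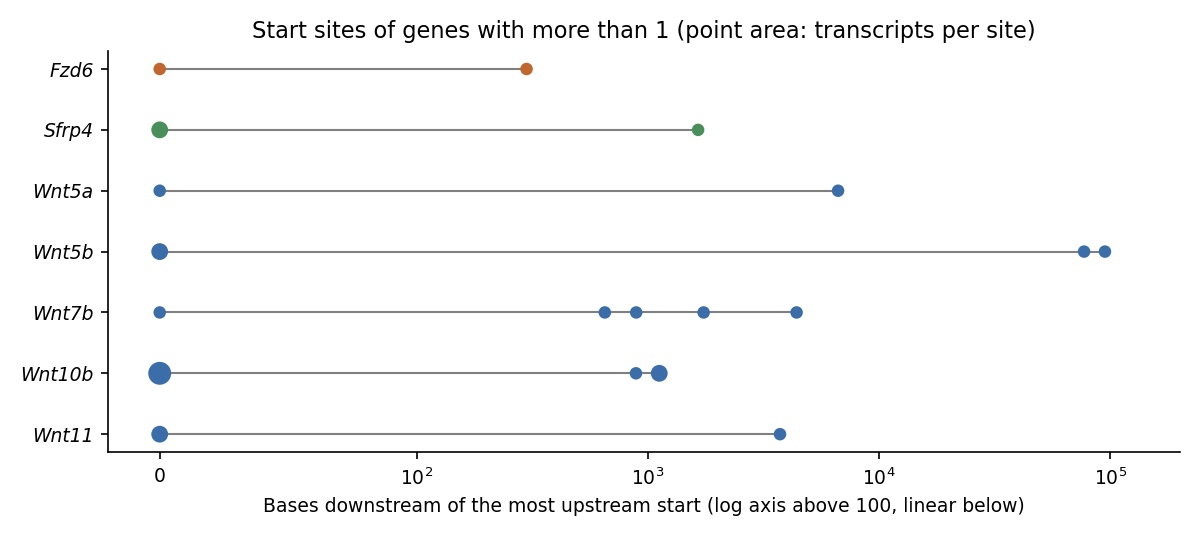
Start sites of the 7 members with an alternative start, as distance in bases downstream of the first start, 1 row per gene (log axis above 100 bases, linear below), with point area for the number of transcripts per site. Wnt7b has 5 sites within 4403 bases, and the sites of Wnt5b reach 94961 bases downstream.

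In 5 members, Wnt5a, Wnt5b, Wnt7b, Wnt10b and Sfrp4, the coding sequences of different transcripts had different bases after the start codon. The beginning of a secreted protein is where the signal peptide, which directs it into the secretory pathway, usually lies. Wnt5a-202, Wnt5b-202, Wnt7b-203 and Sfrp4-204 start inside the principal coding sequence, so they lack its beginning and add no coding bases. Wnt5b-203, Wnt7b-201, Wnt7b-204 and Wnt10b-206 begin with coding bases that the principal does not share. The first 24 coding bases are shown to make these different beginnings visible, and capitals mark the start codon.
Wnt5a-201: ATGaagaagcccattggaatatta
Wnt5a-202: ATGtcttccaagttcttcctaatg
Wnt5b-201: ATGcccagcctgctgctggtggtc
Wnt5b-202: ATGttcatcattggcgctcagccc
Wnt5b-203: ATGttggtcccagggcattgggat
Wnt7b-202: ATGcacagaaactttcgaaagtgg
Wnt7b-201: ATGgcgcagcccccctccctggat
Wnt7b-203: ATGggcatcgacgagtgccagcac
Wnt7b-204: ATGctcctcctgtcgccgcgcagc
Wnt10b-201: ATGctggaggagccccggtctcgg
Wnt10b-206: ATGctggctgctggggtcatgcat
Sfrp4-201: ATGctccgctccatcctggtggcg
Sfrp4-204: ATGatggtgcaagaaaggtccttt

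The principal Wnt5a-201 had 1143 coding bases and the shorter Wnt5a-202 had 1083. Wnt5b-201 had 1080, Wnt5b-203 1119 and Wnt5b-202 966. Wnt7b-202, the principal, had 1050, Wnt7b-201 1071, Wnt7b-204 1062 and Wnt7b-203 849. The principal Wnt10b-201 had 1170 coding bases and Wnt10b-206 had 516, and the principal Sfrp4-201 had 1056 and Sfrp4-204 had 582. Of the 12 Wnt coding sequences other than the principal, 9 kept the lipid-attachment stretch and 3 lacked it. These 3 were Wnt10b-204, with 522 coding bases, and Wnt16-202 and Wnt16-203, with 678 each. For 5 members (Wnt7b, Wnt9a, Wnt10b, Wnt16 and Sfrp4) the longest protein-coding transcript was not the one marked as principal, against 13.8% of protein-coding genes.

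RefSeq start sites, on GRCm38.p6, were matched for 25 of the 37 members. Of their 28 starts, 20 lay within 100 bases of a start in the deposited annotation, and the farthest lay 277 bases away, in Fzd7. For Wnt5b all 3 starts were found at the same base in RefSeq. The ratio of observed to expected CpG in the 250 bases before to 50 after the start was 0.6 or more at 21 of 28 starts, against 49.4% of 20228 RefSeq starts of protein-coding genes. The first Wnt5b start, 1.06, was CpG-rich, and its downstream starts, 0.19 and 0.31, were not. Both Wnt11 starts were above the limit, with 1.18 and 0.88. All 6 Frizzled starts, 13 of 18 Wnt starts and both Sfrp starts passed the limit, and 0 of 2 Dkk starts did.

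The 3′ UTR, from which 3′ libraries draw most reads, was longer in most of these genes than the median of protein-coding genes. The 37 members, all of which had one, had a median of 1868 bases on the longest protein-coding transcript, against 895 over 21480 protein-coding genes (quartiles 304 and 1980), of which 690 had 0 bases. Above that median of 895 lay 28 of 37 members, and 36 of 37 had 500 bases or more, against 65.0% of protein-coding genes. The family medians on this transcript were 1868 bases for Wnt, 2045 for Frizzled, 1758 for Sfrp and 1753 for Dkk.

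The spread within each family was wider than the difference between the family medians. Among ligands the 3′ UTR ran from 559 bases in Wnt10a and 625 in Wnt8a to 3386 in Wnt9b and 4508 in Wnt5a. Close relatives differed: Wnt5b, the nearest relative of Wnt5a, had 867 bases, whereas Wnt7a and Wnt7b had 1868 and 1942. Among receptors it ran from 313 bases in Fzd9, a length that 25.5% of protein-coding genes fell short of, to 10270 in Fzd3, longer than in 99.7% of them. Fzd4 and Fzd5, with 4774 and 4285 bases, followed Fzd3. Among inhibitors it ran from 509 bases in Dkk4 and 714 in Sfrp5 to 3144 in Sfrp1. The 5′ UTR had a median of 329 bases, against 168 over all protein-coding genes, between 45 in Wnt9a and 1359 in Wnt5a.

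**Figure D5:**
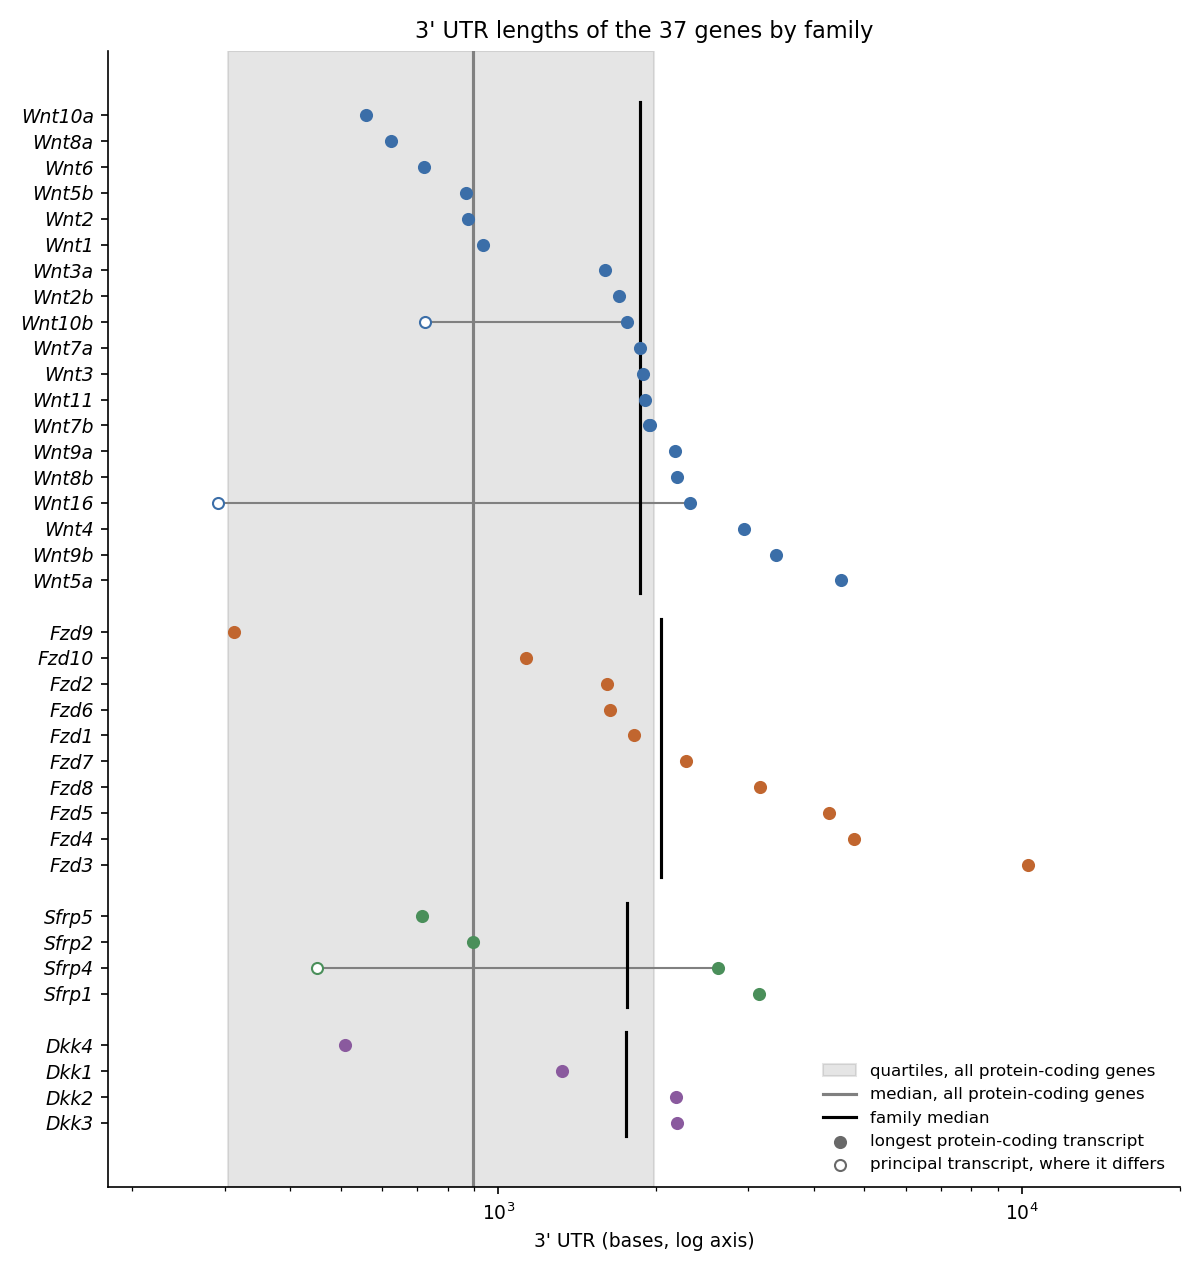
3′ UTR length in bases (log axis) of each member, 1 row per gene, with filled points for the longest protein-coding transcript, open points for the principal transcript where it differs, black lines for family medians and grey for the median and quartiles of all protein-coding genes. Fzd3 stands at 10270 bases and Fzd9 at 313, and the open points of Wnt16, Sfrp4 and Wnt10b lie at 291, 450 and 723 bases.

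For 3 genes the value fell where the longest principal transcript was used, and Wnt7b moved from 1942 to 1952 bases. The longest principal transcript gave Wnt16 291 bases instead of 2327, Sfrp4 450 instead of 2622 and Wnt10b 723 instead of 1764. Some genes had several transcripts marked as principal, and shorter ones gave lower values. These were 374 bases in Fzd5 instead of 4285, 464 in Wnt11 instead of 1908, and 274 in Wnt10b. With principal transcripts the median of the 4 Sfrp genes was 804 bases instead of 1758, beside 782 over all protein-coding genes, and that of the 8 inhibitors was 1108 instead of 1753. More than 1 end site was annotated for 8 members (21.6%), against 41.1% of protein-coding genes. Among them, Wnt16, a ligand of bone and joint, had 3 ends up to 4943 bases apart, Fzd5 had ends 3911 bases apart and Wnt5a 2014 bases apart. Wnt10b had 4 ends, up to 1488 bases apart, and Sfrp4 had 3 within 294 bases.

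On its own strand, no member had an exon of a different gene within its last 500 exonic bases (0 of 37, against 0.968% of protein-coding genes). The same held for the exons of the whole gene (0 of 37, against 2.98%). On the opposite strand 1 member did, against 7.89%: Sfrp2, an inhibitor made by stromal cells, shared 347 of these bases with the lncRNA gene Gm26771. Counting whole exons, 4 of 37 members overlapped a gene of the opposite strand, against 21.7% of protein-coding genes. The others were Fzd6 with Gm26704 (152 bases), Wnt5a with Gm2670 (358 bases) and Wnt7b with AU022754 (324 bases). Reads of these stretches can be told apart from the partner's only by strand. The body of Wnt5b also held the gene Fbxl14 on the opposite strand, with 0 shared exonic bases.

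A cleavage and polyadenylation signal was looked for in the last 50 exonic bases of the longest protein-coding transcript, on its strand only. AATAAA was found in 19 of 37 members, against 59.8% of 21299 protein-coding genes. ATTAAA alone was found in 7, against 13.1%, and neither in 11, against 27.1%. The 11 were Wnt2, Wnt2b, Wnt3, Wnt3a, Wnt4, Wnt8b, Wnt10b, Wnt16, Sfrp1, Sfrp2 and Sfrp4. In Wnt10b, Wnt16 and Sfrp4 the transcript searched was not the principal one and ends at a different site. All 10 Frizzled and all 4 Dkk genes held AATAAA or ATTAAA.

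The other genes of the pathway, 41 in number, were measured in the same way. They comprise 8 other inhibitors, 8 co-receptors and other receptors, 9 genes of the R-spondin axis, 2 of Wnt secretion and 14 of the intracellular cascade. None of the 41 had a single coding exon, against 16.2% of protein-coding genes. An alternative start was found in 16 of 41 (39.0%), near the 42.0% of all protein-coding genes, and more than 1 coding sequence in 21 of 41 (51.2%), against 41.0%. In the intracellular group the counts were 10 and 11 of 14, whereas among the 8 other inhibitors they were 1 and 1. The inhibitor with an alternative start was Notum, the enzyme that removes the lipid from Wnts. The median 3′ UTR of the 41 was 1392 bases, between 202 in the co-receptor gene Lrp5 and 8901 in the inhibitor gene Apcdd1. The same-strand 3′ end was ambiguous in 0 of 41, against 0.968% of protein-coding genes, a share too small for 41 genes to depart from visibly. On the opposite strand 4 overlapped (9.76%, against 7.89% of protein-coding genes), all intracellular, and the longest overlap was of Ctnnb1, the β-catenin gene, with Ulk4 over 475 bases.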

How the data were processed

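The deposited file was a gene annotation, whose values are start and end coordinates in bases, 1-based. The release, per the file headers, was GENCODE M23 (Ensembl 98) on GRCm38, to which the authors had added 5 EGFP records. None of its 1780460 records carries a score. Seurat 4.0.3, R 4.1.0 and Cell Ranger 6.0.1 are named in the submitters' processing notes. Per the labels, Cell Ranger mkfastq was version 6.0.1 except in untreated small intestine, where it was 5.0.0. Depth and expression per sample were not analysed here.

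The reference transcript of a gene was its longest protein-coding transcript (most exonic bases). The principal transcript was the longest that the APPRIS tag marks as principal, and gave coding exon lengths, phases and coding sequences. Counts of genes with a single coding exon or with introns in a UTR used the reference transcript. Starts and ends were merged within 100 bases, and the 3′ end was the last 500 exonic bases. Sequences came from GENCODE M21 where transcript version and length were equal. Coding sequences were aligned end to end with Biopython 1.88, under Python 3.11.15, NumPy 2.4.6 and pandas 2.3.3. Every member was named. Members, gene lists and measures were chosen with earlier results of these data known. On simulated data each of 6 measures was recovered in 2000 of 2000 genes.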

Additional observations from a re-analysis of the deposited data

How the results depend on the processing

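Over 9 results, 29 alternatives were computed, of which 28 were planned. None turned a direction, 26 stayed within 1.5 times the main value, and 3 moved further. Principal transcripts put the median 3′ UTR of the secreted inhibitors at 1108 bases instead of 1753. Counting all transcripts of a gene put the members with an alternative start at 13 instead of 7. Counting overlap on either strand put the members with an ambiguous 3′ end at 1 instead of 0. Part of the unchanged values was fixed in advance. The reference transcript of every member was complete, so taking the longest complete transcript could not change a value. For 26 of the 37 members only a single protein-coding transcript was annotated, so a choice among protein-coding transcripts could not change them. The 7 Frizzled genes with a single coding exon and the 4 neighbouring Wnt pairs were found under every alternative run for them. For the Frizzled genes the alternatives only chose among transcripts and could not lower the count. Fzd1, Fzd2, Fzd7, Fzd8, Fzd9 and Fzd10 had a single transcript each, and the 2 of Fzd5 shared a single coding sequence. No paired analysis was possible because the annotation holds no values per sample. The annotation shows which transcripts were modelled, not which are made in intestinal stroma. GENCODE M21 sequences cover only models equal in both releases, and RefSeq starts were matched for 25 of 37 members.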
